A study of Arabidopsis thaliana with 24 samples.

Results

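The transcripts of the plastid genome were followed in shoots of Arabidopsis thaliana seedlings in which the expansin gene EXPA1 could be switched on. The genes were taken from the table of estimated counts as those whose identifier starts with ATCG, the prefix of the plastid genome, and whose counts summed to at least 240 over the 24 libraries, with the plastid rRNA genes left out. This gave 83 genes of the 133 plastid genes in the table, which lists 33602 genes in all. Of the other plastid genes 8 were rRNA genes and 42 stayed under the minimum, 33 of them with no count at all. The 83 comprised 80 named protein-coding genes, 1 gene at the place of a tRNA gene (trnS) and 2 unnamed open reading frames, ATCG00870 and ATCG01270. The count table has trnS on the strand opposite to that of the RefSeq annotation, so whether its counts are those of the tRNA is uncertain. These libraries were selected for polyA tails, so the plastid RNA in them is what passed that selection and not a measure of all plastid RNA.

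Shoots of 7-day-old seedlings were sequenced in 6 groups of 4 biological replicates. The EXPA1 OE line carries EXPA1 in a dexamethasone (Dex) inducible cassette under the RPS5A promoter (pRPS5A>GR>EXPA1) in the Col-0 ecotype, and was compared with the wild type (WT), which is Col-0. The groups were EXPA1 OE and WT without Dex, EXPA1 OE and WT induced with Dex for 3 h, and EXPA1 OE and WT grown on Dex for 7 days. A single transgenic line, 8-4, stands for EXPA1 OE, so the effect of the transgene and that of its insertion or line history cannot be told apart, and Dex itself was given to both genotypes. EXPA1 stood at 427.6 ± 37.7, 18770 ± 1271 and 13691 ± 1831 CPM (a library's counts scaled so that every library has the same total) in EXPA1 OE without Dex, after 3 h and after 7 days of Dex, against 342 ± 163, 371 ± 41.9 and 387 ± 90.9 CPM in WT (SD, n = 4 each).

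Plastids keep a small genome of bacterial descent that encodes core subunits of both photosystems, the cytochrome b6f complex, the ATP synthase, Rubisco, the NADH dehydrogenase-like (NDH) complex, plastid ribosomes and a bacterial-type RNA polymerase. That polymerase, built from the products of rpoA, rpoB, rpoC1 and rpoC2 and guided by nuclear sigma factors, transcribes most photosynthesis genes. A phage-type polymerase encoded in the nucleus transcribes the rpoB operon, accD, ycf2 and other housekeeping genes. Unlike nuclear mRNAs, plastid mRNAs have no stable polyA tail, and a tail added in the plastid marks an RNA for decay.

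Because the libraries passed through polyA selection, the A-richest stretch of 8 of the genes is shown, chosen as genes that differ in their longest run of A and in how they behaved in the libraries described further on. Each line holds 60 bases of the plastid chromosome around the 20 bases with most A, read on the gene's own strand, with the longest run of A of that stretch in capitals. Positions are those of the TAIR10 plastid sequence, taken from RefSeq, on which 84 of the 86 protein-coding plastid genes began with ATG or GTG and 85 ended with a stop codon at the coordinates of the count table. The stretches lie at Pt:78072-78131 (minus strand) in rpoA, Pt:128200-128259 (minus) in ycf1, Pt:54081-54140 (minus) in atpB, Pt:57345-57404 (plus) in accD, Pt:685-744 (minus) in psbA, Pt:32711-32770 (plus) in psbD, Pt:54958-55017 (plus) in rbcL and Pt:40141-40200 (minus) in psaA, each within an exon.
rpoA: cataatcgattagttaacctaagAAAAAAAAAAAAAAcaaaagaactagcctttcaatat
ycf1: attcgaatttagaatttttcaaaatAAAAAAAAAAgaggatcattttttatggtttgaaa
atpB: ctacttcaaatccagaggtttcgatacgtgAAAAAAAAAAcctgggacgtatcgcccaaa
accD: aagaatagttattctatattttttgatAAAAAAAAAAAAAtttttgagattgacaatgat
psbA: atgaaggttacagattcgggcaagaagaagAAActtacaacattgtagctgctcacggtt
psbD: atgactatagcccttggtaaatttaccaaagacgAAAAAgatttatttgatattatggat
rbcL: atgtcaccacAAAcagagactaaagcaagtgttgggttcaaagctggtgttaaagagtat
psaA: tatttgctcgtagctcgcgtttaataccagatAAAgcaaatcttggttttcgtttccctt
The first 4 genes hold runs of 10 to 14 A in these stretches, and the 4 photosynthesis genes after them runs of 3 to 5. A run of A inside a gene is described here as sequence only, and whether it was bound in the polyA selection was not tested.

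Together the 83 transcripts made up between 0.381% and 0.898% of a library, with libraries of 33618187 to 82187304 counts. Ribosomal protein genes held 41.6% of this sum, taken from counts summed over the 24 libraries, and the ATP synthase genes 23.98%. Photosystem II, Rubisco (rbcL alone), the RNA polymerase, the NDH complex, photosystem I and cytochrome b6f followed with 7.32%, 4.51%, 4.39%, 4.12%, 2.11% and 0.711%, and the remaining genes held the rest. The atpB gene (Pt:52660-54156, minus strand), for the β subunit of the ATP synthase, had the highest summed count and alone made up 16.4% of the plastid sum. The unnamed ATCG00870 and its identical copy ATCG01270 were lowest, at 415.5 each, with their fragments divided between the 2 copies.

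Levels were set against exon length before genes were compared, which leaves out introns such as that of rpl16 (408 bases of exon). Per kilobase, rpl16 and rpl14, 2 ribosomal proteins encoded next to each other, stood at 1092 and 630 CPM per kilobase (mean of 24 libraries), and atpE and atpB, the ε and β subunits of the ATP synthase whose genes overlap, at 875 and 597. These were followed by rps3 at 480 and rps19 at 427, again ribosomal proteins of the same cluster. The core photosynthesis genes stood lower on this scale.

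The large subunit of Rubisco, rbcL, stood at 168 CPM per kilobase, psbA (the D1 protein of photosystem II) at 115, psbD (the D2 protein) at 67.6 and psaB, the highest of photosystem I, at 25.4. In the NDH complex ndhK led with 127, in the RNA polymerase rpoA with 128, in cytochrome b6f petD with 20.4 and among the remaining genes ycf1, a subunit of the inner envelope translocon, with 90.7. The medians were 128 CPM per kilobase over the 25 ribosomal protein genes and 8.41 over the 12 NDH genes.

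**Figure D1:**
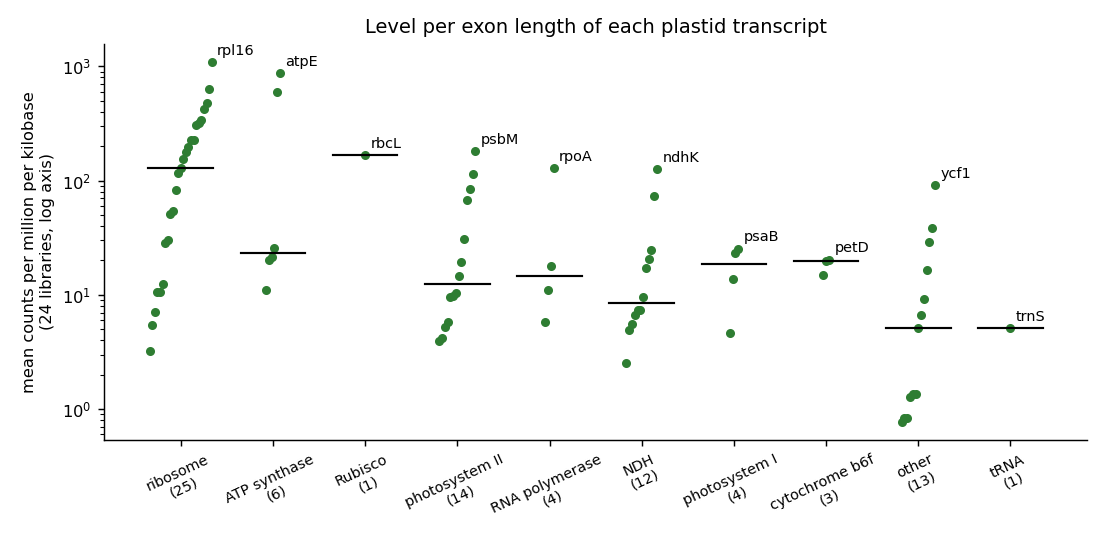
Mean CPM per kilobase of exon length over the 24 libraries (log axis) of each of the 83 plastid transcripts, by functional group with the number of genes in brackets; bars are medians and the highest gene of each group is named. The ribosomal gene rpl16 (1092) and the ATP synthase gene atpE (875) stood highest, against 168 for rbcL and 25.4 for psaB.

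These levels depend on how reads were assigned. The estimated counts come from RSEM, and a second table counts reads over exons. In the exon counts psbM, a small subunit of photosystem II of 105 bases, stood at 1177 CPM per kilobase, against 181 in the estimated counts. Genes in the inverted repeat, present as 2 identical copies of 26264 bases, had almost no exon counts (4 in all for both copies of the 3′ part of rps12), whereas RSEM divides their fragments between the copies. For rpl2 the division was equal in only 12 of the 24 libraries, so the levels of single copies of rps12, rpl23, ndhB, rps7, ycf2, rpl2 and ATCG00870 (a pair with ATCG01270) are uncertain. Genes that overlap on the same strand (psbD with psbC, atpB with atpE, rps3 with rpl22) share fragments and their levels are uncertain to that extent.

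Libraries differed in how much ribosomal RNA they carried, and in 3 groups the libraries richest in it had the highest sums of plastid transcripts. Among the other 19 libraries no such order held, since in EXPA1 OE after 7 days the library with the least nuclear rRNA (replicate 1) had the highest sum and that with the most (replicate 4) the lowest. Nuclear rRNA genes made up 0.256% to 0.766% of the counts in 19 libraries, but 5.549% in replicate 2 of EXPA1 OE after 3 h of Dex, 1.763% and 1.935% in replicates 1 and 2 of WT after 3 h, and 1.63% and 0.9955% in replicates 3 and 4 of WT without Dex. Plastid rRNA, left out of the 83 genes, followed the same libraries, with 99099 CPM in that EXPA1 OE library against 6141 to 7745 CPM in the other 3 of its group. The green tissue markers RBCS1A, LHCB1.1, CA1 and RCA were high throughout, with lowest values of 16917, 4618, 2281 and 7745 CPM. Without Dex their means, in that order, were 23638, 7749, 5226 and 13640 in EXPA1 OE, against 25506, 7502, 4971 and 13029 in WT. After 3 h they were 18052, 5403, 2433 and 9024 against 21274, 8918, 3375 and 11216. After 7 days they were 21095, 7070, 3781 and 12033 against 24117, 7465, 4700 and 12492. Each green marker thus had a lower mean in EXPA1 OE after 3 h and after 7 days, but only RBCS1A without Dex. Of the 6 root markers 5 stayed at or under 4.29 CPM in every library. All 6 root markers had a lower mean in EXPA1 OE than in WT without Dex, 2 of 6 did after 3 h and 3 of 6 after 7 days. The 5 low ones summed to 1.26 to 2.34 CPM in EXPA1 OE, against 3.92 to 6.49 in WT without Dex, to 5.38 to 8.39 in EXPA1 OE against 3.67 to 4.18 in WT after 3 h, and to 2.65 to 9.46 in EXPA1 OE against 4.15 to 7.15 in WT after 7 days. PYK10, a root and hypocotyl β-glucosidase, stood at 1014 to 1165 CPM in EXPA1 OE, against 1380.5 to 2112 in WT without Dex, at 227 to 320.1 in EXPA1 OE against 676 to 759.8 in WT after 3 h, and at 915 to 1476 in EXPA1 OE against 1539 to 1800.4 in WT after 7 days. The part of these markers in the plastid differences was not tested. In bulk tissue, fewer green cells or plastids and less plastid RNA per cell cannot be told apart.

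The sum of the 83 transcripts was 4766, 4563, 4644 and 4272 CPM in EXPA1 OE without Dex, against 5189, 5405, 8980 and 7595 in WT without Dex. After 3 h of Dex it was 4765, 8417, 4040 and 3812 CPM in EXPA1 OE, against 6417, 7229, 4852 and 5514 in WT, and after 7 days 4589, 4537, 3976 and 3824 in EXPA1 OE, against 5513, 5512, 4716 and 5015 in WT. EXPA1 OE lay below WT without overlap at both ends of the series, and after 3 h its replicate 2 was above every WT library and the other 3 below every WT library. The highest library of each group without Dex or after 3 h of Dex was one of those rich in rRNA, except in EXPA1 OE without Dex, which had none.

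**Figure D2:**
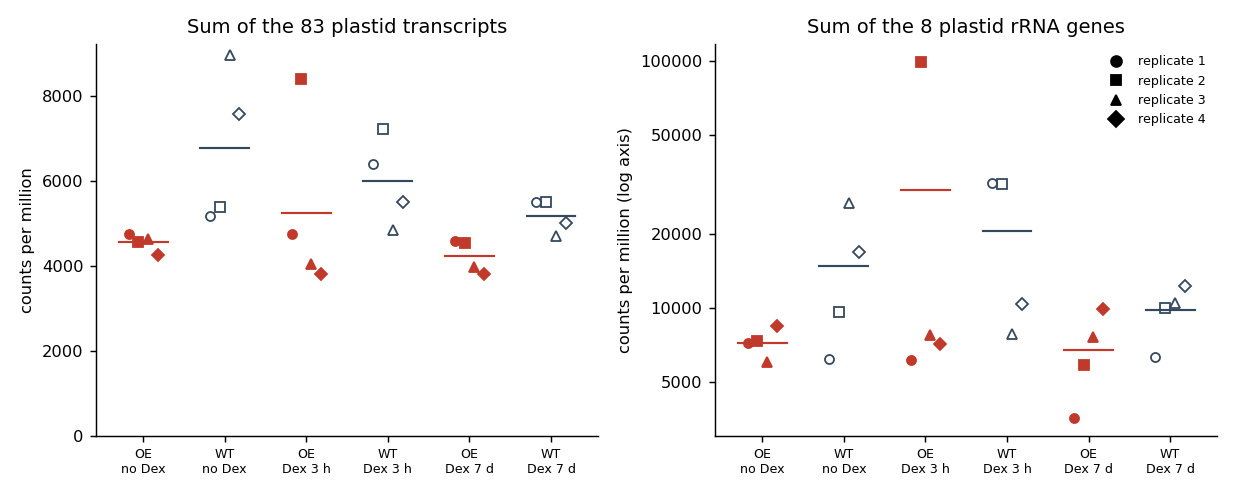
CPM of the summed 83 plastid transcripts (left, linear axis from 0) and of the 8 plastid rRNA genes (right, log axis) in each library, with EXPA1 OE (OE, filled) left of WT (open) at each time and bars at group means. Replicate 2 of OE after 3 h of Dex stood at 8417 and 99099, against 3812 to 4765 and 6141 to 7745 in the other 3 libraries of its group.

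That replicate 2 also shows how the genes differ among themselves. Its level over the mean of the other 3 replicates of EXPA1 OE after 3 h had a median of 2.85 over the 83 genes and ran from 0.705 to 9.04, with 25 genes above 4. The lowest value is that of 1 copy of rpl2 (ATCG01310), whose identical copy (ATCG00830) had 2.499 and which stood at 1.30 with both copies summed. The photosynthesis genes psbD, psbC (the CP43 antenna protein), psaA (a photosystem I core protein), psbA and rbcL were high at 9.04, 8.71, 7.77, 7.52 and 6.57, while rps3, rpl22, rpl14 and rpl16 were low at 0.729, 0.752, 0.794 and 0.798. These genes do not stand for their whole groups. The ribosomal protein genes ran from 0.705 to 6.62 (median 1.24), with rps14 highest. Those of photosystem II ran from 0.82 to 9.04 (median 4.14), and those of the ATP synthase from 2.04 to 5.63 (median 3.54). The RNA polymerase genes rpoB and rpoA and the long ycf1 (ATCG01130) were level with the other replicates at 1.03, 1.01 and 1.01.

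Genes with a low ratio tended to hold more A. Across the 83 genes, which share libraries and in part operons and are not independent, the Spearman correlation of this ratio was -0.544 with the percentage of A in the gene, -0.292 with the longest run of A, and -0.507 with the level per kilobase. Genes such as rpl16 (41.1% A, 11 A in a row) and ycf1 (40.2%, 13 in a row) lay at one end, and psbD (22.0%, 5 in a row) and psbA (23.4%, 4 in a row) at the other. The percentage and the runs of A cover the whole gene, introns included, whereas levels per kilobase were set against exon length. In rpl16 the 60 bases around its A-richest stretch did not lie wholly in 1 exon, so its A content is not that of the exons alone. There were exceptions, since psbM with 28.6% A had a ratio of 0.82 and matK, the splicing factor of plastid introns, with 31.7% A one of 5.41.

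**Figure D3:**
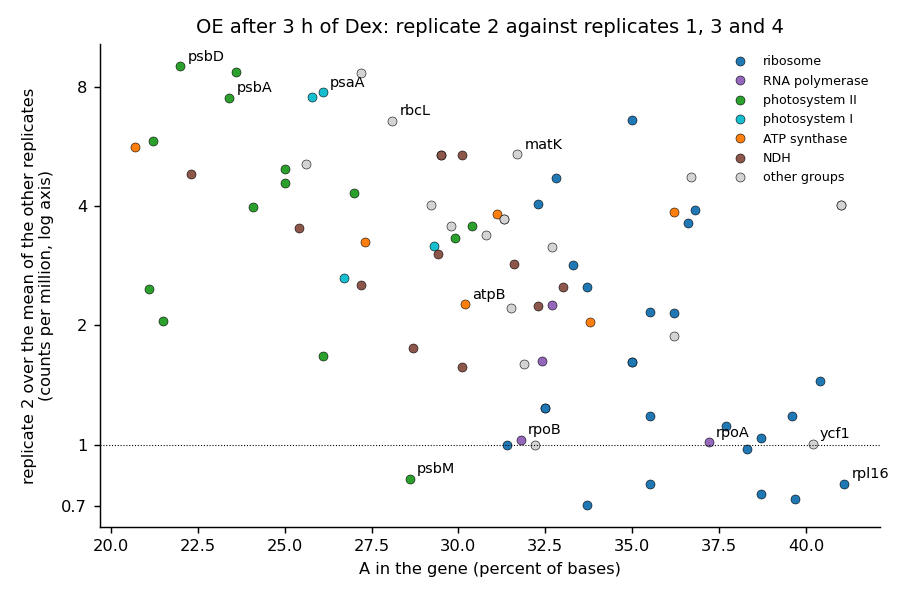
Ratio of replicate 2 to the mean of replicates 1, 3 and 4 in EXPA1 OE after 3 h of Dex (CPM, log axis) against the percentage of A in the gene, one point per plastid transcript coloured by functional group. The percentage covers introns as well as exons. Low-A genes of both photosystems reached ratios of 7.52 to 9.04 (psbA, psaA, psbC, psbD), and A-rich genes such as rpl16, ycf1 and rpoA lay at 0.798 to 1.01.

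Without Dex, the plastid transcripts were lower in EXPA1 OE than in WT. All 83 had a negative log2 fold change with a median of -1.01 (all genes tested: 0.02), and 13 were called lower and 0 higher, where a call needs both an adjusted p below 0.05 and a difference of 1 or more on the log2 scale (edgeR's quasi-likelihood test, Benjamini-Hochberg adjustment over all genes tested), where 2.94% of all genes tested were called lower and 0.214% higher. Called were 5 of the 12 NDH genes (ndhA, ndhD, ndhG, ndhH and ndhI), 2 of the 4 RNA polymerase genes (rpoC1 and rpoC2), 3 of the 25 ribosomal protein genes (rps2, rps15 and the 5′ part of rps12), ycf4 and both copies of ycf2, and no gene of the photosystems, cytochrome b6f, the ATP synthase or Rubisco. By the adjusted p alone 24 genes passed, all lower (background 7.02%), and for 23 genes all 4 EXPA1 OE libraries lay below all 4 WT libraries, where this held for 7.43% of all genes tested.

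The largest falls among the called genes were in ndhI and ndhG, a connecting and a membrane subunit of the NDH complex, and in ycf4, a photosystem I assembly factor. The ndhI transcript had 2.72, 2.42, 2.03 and 2.13 CPM in EXPA1 OE, against 2.88, 4.52, 17.1 and 18.5 in WT (log2 fold change -2.29 ± 0.59 SE, adjusted p = 0.0401 by edgeR), and ndhG had 1.76, 1.61, 1.61 and 1.54 CPM against 1.92, 2.97, 11.9 and 12.4 (-2.25 ± 0.60, adjusted p = 0.0444). For ycf4 the values were 1.40, 1.37, 1.99 and 1.81 CPM in EXPA1 OE, against 1.71, 3.50, 11.8 and 10.6 in WT (-2.16 ± 0.58, adjusted p = 0.046). In each case replicates 3 and 4 of WT, the libraries rich in rRNA, were the highest, and WT replicate 1 was close to or within the EXPA1 OE libraries.

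All 4 RNA polymerase genes passed by the adjusted p, without overlap between genotypes. The rpoB transcript (Pt:23111-26329, minus strand), for the β subunit, had 46.3, 48.6, 52.5 and 46.2 CPM in EXPA1 OE, against 65.4, 68.7, 89.9 and 90.5 in WT (log2 fold change -0.77 ± 0.13, adjusted p = 0.00989 by edgeR), so that the groups did not overlap and replicates 1 and 2 of WT also stood above every EXPA1 OE library. The β′ subunit gene rpoC1 fell by 1.03 on the log2 scale (adjusted p = 0.0384), rpoC2, for the β″ subunit, by 1.65 (adjusted p = 0.0342), and rpoA by 0.71, under the fold minimum (adjusted p = 0.0417, all by edgeR).

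The core photosynthesis genes did not pass. For rbcL the values were 139, 144, 150 and 164 CPM in EXPA1 OE, against 131, 200, 452 and 353 in WT, a log2 fold change of -1.01 ± 0.35 with an adjusted p of 0.099 by edgeR. The psaA and psaB values differed by -1.67 ± 0.51 and -1.71 ± 0.49 (adjusted p = 0.067 and 0.0577 by edgeR), psbA by -0.72 ± 0.34 (0.201), psbD by -1.10 ± 0.37 (0.0884) and petB, for cytochrome b6, by -1.22 ± 0.42 (0.0964). WT replicate 1 lay below every EXPA1 OE library for rbcL, psaA, psbA and petB. The atpB values differed by -0.35 ± 0.20 (adjusted p = 0.278 by edgeR), those of ndhF, a membrane subunit of the NDH complex, by -1.52 ± 0.48 (0.0781), those of clpP, a protease subunit, by -0.79 ± 0.24 (0.0698), those of accD by -2.15 ± 0.62 (0.0572), and those of the rpl2 copies ATCG00830 and ATCG01310 by -0.26 ± 0.18 and -0.98 ± 0.28 (0.371 and 0.0588).

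None of the 13 was called when any one EXPA1 OE library, or WT replicate 3 or 4, was left out, though ycf1 (ATCG01000) was called without EXPA1 OE replicate 1 or 2. All 13 were called without WT replicate 1 or 2, among 41 and 25 genes. Without WT replicates 3 and 4 together no plastid gene was called by edgeR, with 31 at an unadjusted p under 0.05, and the median log2 fold change was -0.29. With no fold minimum 18 genes passed, all lower (17.1% of all genes tested), of which 16 were among the 24 and atpI and rpl2 (ATCG00830) were not. The 18 included all 4 RNA polymerase genes, with rpoB at -0.48 ± 0.06 (adjusted p = 0.000529 by edgeR), the NDH genes ndhA, ndhG, ndhH and ndhI, 7 ribosomal protein genes and both ycf1 genes. Of 37 mitochondrial transcripts tested in the full set of libraries 6 were called lower and 0 higher, with a median of -1.27, and the 8 plastid rRNA genes had a median of -1.12 with 0 called. With the log2 share of nuclear rRNA as a covariate 0 plastid genes were called, with 21 at an unadjusted p under 0.05 by edgeR, and 6 passed without the fold minimum, all lower (14.9% of all genes tested). The median was then -0.29, and 72 of the 83 genes were negative.

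After 3 h of Dex no plastid gene was called in either direction between EXPA1 OE and WT by edgeR or by DESeq2, with 12 and 11 genes at an unadjusted p under 0.05, although 4.51% of all genes tested were called higher and 4.89% lower. The median log2 fold change was -0.24, and 60 of the 83 genes were negative. By the adjusted p alone 9 genes passed, all lower, where 25.8% of all genes tested did so. Among them were rpl14, rpl16, rpl22, rps3 and rps19 of the ribosome, rpoB, ycf1 (ATCG01130) and psbM. In the rRNA-rich replicate 2 of EXPA1 OE these named genes stood at 0.729 to 1.04 times the mean of the other replicates, and the part of this in their passing was not tested.

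The rpoB transcript was the single plastid gene for which all 4 EXPA1 OE libraries lay below all 4 WT libraries (20.1% of all genes tested). It had 43.0, 45.9, 46.0 and 44.7 CPM in EXPA1 OE, against 51.6, 58.5, 47.6 and 51.9 in WT (-0.24 ± 0.09, adjusted p = 0.0399 by edgeR). For psbA, by contrast, EXPA1 OE held 72.1, 619, 88.8 and 86.1 CPM, against 203, 211, 85.9 and 96.1 in WT, and for rbcL 130, 996, 162 and 163 against 438, 455, 162 and 200. In both genotypes the high values were those of the rRNA-rich libraries, and the groups overlapped throughout.

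Leaving out replicate 2 of EXPA1 OE and replicates 1 and 2 of WT gave a lower level in EXPA1 OE for 80 of the 83 genes, with a median of -0.48. Of these 4 were called lower (4.62% of all genes tested): ndhE, trnS (strand uncertain), accD, a subunit of acetyl-CoA carboxylase, and ycf4. Without the fold minimum 32 passed, all lower (18.6%), among them 5 of 6 ATP synthase genes, 7 of 12 NDH genes, all 3 cytochrome b6f genes and rpoB (-0.22 ± 0.06, adjusted p = 0.0283 by edgeR). For accD the remaining values were 1.03, 1.03 and 1.01 CPM in EXPA1 OE, against 1.73 and 2.80 in WT. Leaving out replicate 2 of EXPA1 OE alone gave 32 genes called lower with the fold minimum, where 5.32% of all genes tested were. With all 8 libraries and the nuclear rRNA covariate 0 were called, with 46 at an unadjusted p under 0.05 by edgeR. Then 35 passed lower without the fold minimum, where 5436 of 20449 genes tested did, the median was -0.30 and 75 of the 83 genes were negative.

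On Dex for 7 days, where no library was as rich in rRNA, the plastid transcripts were again lower in EXPA1 OE. All 83 had a negative log2 fold change with a median of -0.52 (all genes tested: 0.00), 7 were called lower and 0 higher (edgeR; 1.65% and 2.22% of all genes tested), and with no fold minimum 32 passed, all lower (7.37%). The 7 were ndhD, ndhE, ndhG and ndhI of the NDH complex, psbT, a small subunit of photosystem II, matK and ycf4. For 29 genes all 4 EXPA1 OE libraries lay below all 4 WT libraries, where 9.15% of all genes tested did.

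The NDH genes had the lowest median of the functional groups, -0.85, and 10 of the 12 passed without a fold minimum. The ndhD transcript, for a membrane subunit, had 3.75, 3.65, 4.77 and 5.03 CPM in EXPA1 OE, against 5.93, 9.17, 9.47 and 15.4 in WT (log2 fold change -1.27 ± 0.27, adjusted p = 0.0183 by edgeR). The groups did not overlap, and the highest WT library was replicate 4. The ndhH transcript, for a connecting-arm subunit, had the smallest adjusted p among the plastid genes, with 20.4, 18.2, 17.1 and 15.8 CPM against 28.3, 30.8, 24.2 and 32.05 (-0.74 ± 0.12, adjusted p = 0.00733 by edgeR). ndhE and ndhG stood at -1.13 ± 0.31 and -1.12 ± 0.28 (adjusted p = 0.043 and 0.0346 by edgeR).

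The RNA polymerase genes rpoB, rpoC1 and rpoC2 passed, and rpoA did not (-0.37 ± 0.11, adjusted p = 0.0525 by edgeR). The rpoB transcript had 56.5, 56.5, 53.4 and 48.8 CPM in EXPA1 OE, against 72.0, 63.8, 68.0 and 73.1 in WT (-0.41 ± 0.08, adjusted p = 0.0145 by edgeR), again without overlap. The ycf1 (ATCG01130) transcript had 387, 436, 349 and 350 CPM in EXPA1 OE, against 639, 533, 493 and 543 in WT (-0.59 ± 0.11, adjusted p = 0.0115 by edgeR). Of the core photosynthesis genes psbD passed (-0.60 ± 0.14, adjusted p = 0.0244 by edgeR), as did petB (-0.86 ± 0.17, 0.0148), psbB for the CP47 antenna protein (-0.71 ± 0.13, 0.0119) and atpA for the α subunit of the ATP synthase (-0.96 ± 0.23, 0.0305), while rbcL, psbA, psaA and psaB did not (-0.40 ± 0.24, -0.40 ± 0.25, -0.51 ± 0.29 and -0.61 ± 0.31).

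The atpB and atpE transcripts, the most abundant ATP synthase genes, differed by -0.21 ± 0.20 and -0.18 ± 0.21 (adjusted p = 0.5 and 0.579 by edgeR). Nuclear rRNA in these 8 libraries was 0.256% to 0.766% in EXPA1 OE, against 0.458% to 0.658% in WT, and with the log2 share of nuclear rRNA as a covariate the median was -0.49, 33 genes passed lower without a fold minimum (7.79% of all genes tested) and 1, ndhD, with it (1.45%). Of the 7 called genes all were called without WT replicate 1 (13 in all), 4 without EXPA1 OE replicate 3 or WT replicate 2, 3 without WT replicate 3, 2 without EXPA1 OE replicate 4, 1 without EXPA1 OE replicate 1 and 0 without EXPA1 OE replicate 2 or WT replicate 4. With the replicate number as a block, 7 genes were called, 6 of them among the 7, with accD in place of ycf4.

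**Figure D4:**
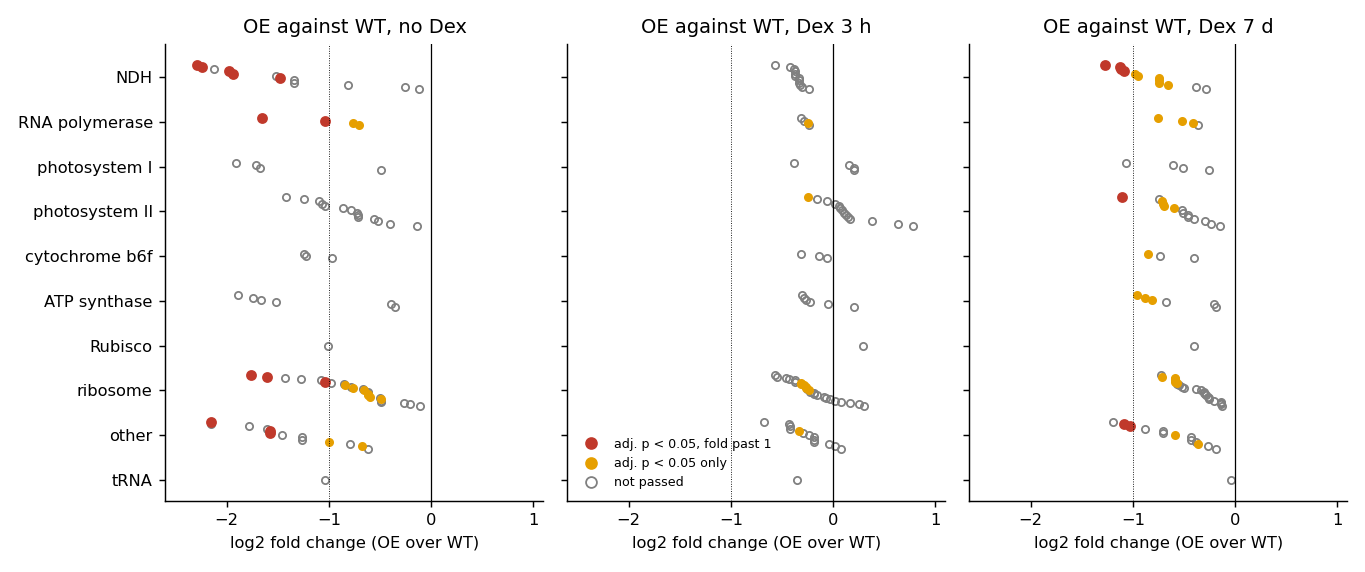
Log2 fold change (EXPA1 OE over WT) of each plastid transcript by functional group without Dex, after 3 h and after 7 days of Dex; red points were called, orange points passed by the adjusted p alone and open points did not pass, with the dotted line at -1. All 83 genes lay left of 0 without Dex and after 7 days, with medians of -1.01 and -0.52.

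The 3 comparisons of EXPA1 OE with WT share no library. By the adjusted p alone 11 genes passed both without Dex and after 7 days, 45.8% of the 24 and 34.4% of the 32: ndhA, ndhD, ndhG, ndhH, ndhI, rpoB, rpoC1, rpoC2, rps15, ycf1 (ATCG01130) and ycf4. Over all genes tested 245 passed lower in both, 17% of the 1445 without Dex and 16.1% of the 1523 after 7 days. Plastid genes also passed lower more often than all genes without Dex and after 7 days, and the overlap between these 2 comparisons was not tested. After 3 h only 9 of the 83 passed lower, where 25.8% of all genes tested did. Only rpoB and ycf1 (ATCG01130) passed in all 3. For rpoB the adjusted p stayed under 0.05 in all 20 alternative fits without Dex (log2 fold change -0.86 to -0.48), in 14 of 20 after 3 h (-0.33 to -0.18) and in 18 of 19 after 7 days (-0.48 to -0.36), the exception there being the fit without WT replicate 4, at an adjusted p of 0.0505.

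**Figure D5:**
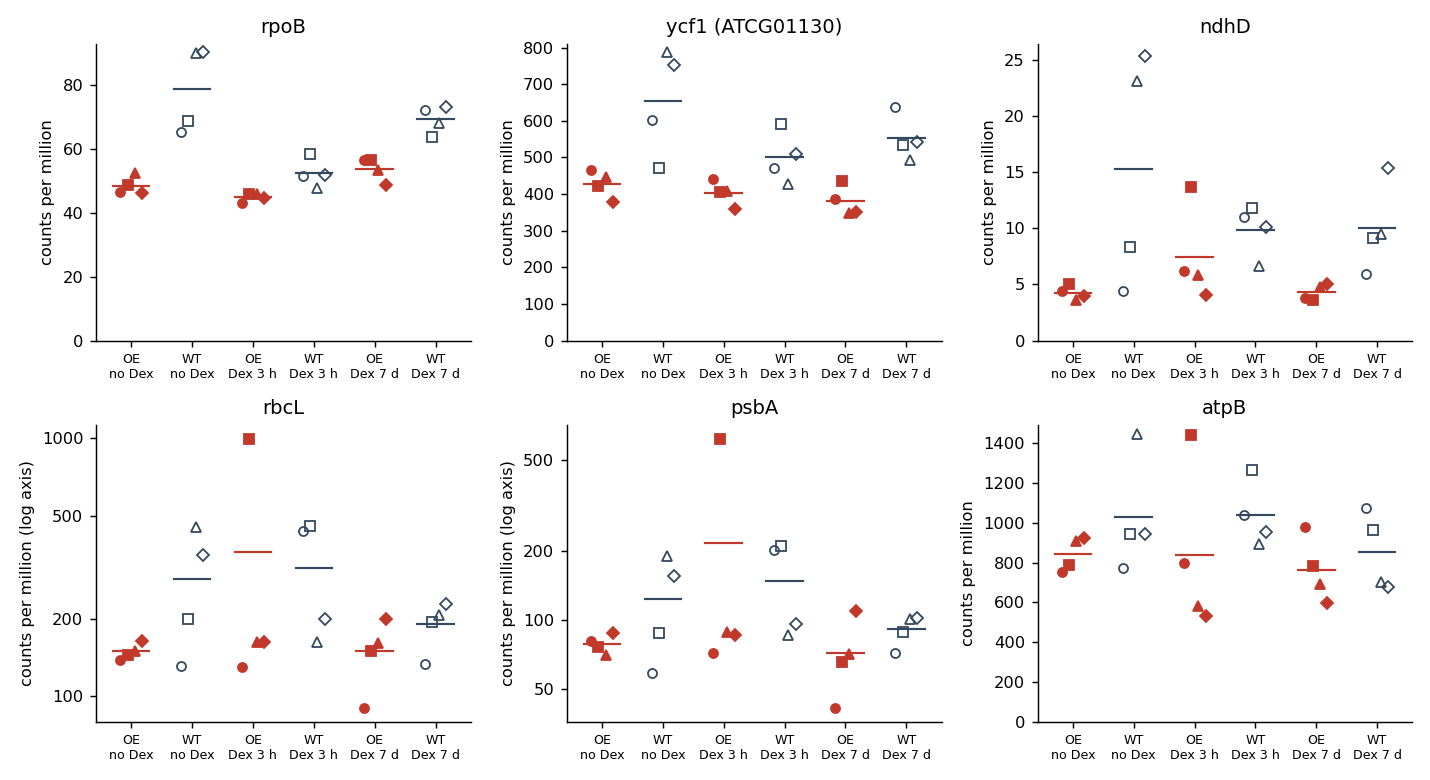
CPM of 6 plastid transcripts in each library, EXPA1 OE (OE, filled) left of WT (open) at each time, with bars at group means; circles, squares, triangles and diamonds are replicates 1 to 4, and rbcL and psbA have log axes. The rpoB values of OE (43.0 to 56.5) lay below those of WT at the same time in every group, whereas rbcL and psbA peaked at 996 and 619 in replicate 2 of OE after 3 h of Dex.

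In WT, no plastid transcript was called after Dex. After 3 h in WT against WT without Dex 0 were called in either direction by edgeR and by DESeq2, with 9 and 11 at an unadjusted p under 0.05 (3.57% of all genes tested were called higher and 5.38% lower). The median log2 fold change was -0.34, and 4 genes passed with no fold minimum, all lower (17.9%). Without the 4 rRNA-rich libraries of these groups the median was 0.12, with 34 genes negative. With the nuclear rRNA covariate it was -0.43, with 81 negative and 35 passing lower without a fold minimum (17.4%). After 7 days 0 were called by edgeR and by DESeq2, with 28 and 37 at an unadjusted p under 0.05, where 0.00482% of all genes tested were called higher and 0% lower.

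The median in WT after 7 days was -0.67 with all 83 genes negative, and without the rRNA-rich replicates 3 and 4 of WT without Dex it was 0.08 with 35 negative. Both comparisons, and that of EXPA1 OE with WT without Dex, use the same WT libraries without Dex, so their values are not independent. For rbcL, WT held 438, 455, 162 and 200 CPM after 3 h and 133, 194, 207 and 228 after 7 days, against 131, 200, 452 and 353 without Dex. For rpoB, WT held 51.6, 58.5, 47.6 and 51.9 CPM after 3 h and 72.0, 63.8, 68.0 and 73.1 after 7 days, against 65.4, 68.7, 89.9 and 90.5 without Dex. Every WT value of rpoB after 3 h was thus below every one without Dex.

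In EXPA1 OE, 3 plastid genes were called higher after 3 h of Dex than without it and 0 lower (9.05% and 9.06% of all genes tested): psaA, psaB and rps14, which lie side by side in the genome. The psaA transcript had 25.6, 233, 31.1 and 33.3 CPM after 3 h, against 23.1, 24.5, 23.3 and 25.7 without Dex (1.83 ± 0.70, adjusted p = 0.036 by edgeR), and rps14 had 5.50, 39.5, 6.47 and 5.95 against 4.65, 5.90, 4.64 and 4.46 (1.63 ± 0.66, adjusted p = 0.0466). DESeq2 gave no p for 25 of the 83 genes, these 3 among them, and called 2 others, accD and rps12 (ATCG00065), higher. Replicate 2 held the high values. Without it 0 genes were called higher and 1, trnS (strand uncertain), lower, and psaA stood at 0.21, psaB at 0.24 and rps14 at 0.19. The 3 calls also became 0 without any one of the libraries without Dex, and 14, 13 and 20 without replicates 1, 3 and 4 of the 3 h group. Without replicate 2, 20 genes passed lower by the adjusted p alone, where 32.6% of all genes tested did, and 1, psaB, higher. Those lower included psbZ (-0.92 ± 0.15), psbD (-0.59 ± 0.07), psbC (-0.51 ± 0.05), atpE (-0.53 ± 0.15), atpB (-0.51 ± 0.14) and rpoB (-0.22 ± 0.05).

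For psbD the values apart from replicate 2 were 35.7, 33.2 and 30.6 CPM after 3 h, against 51.8, 44.3, 44.7 and 44.8 without Dex, with no overlap. After 7 days 0 of 80 genes tested were called in EXPA1 OE against EXPA1 OE without Dex by edgeR and by DESeq2, with 21 and 19 at an unadjusted p under 0.05 (4.8% of all genes tested were called higher and 1.44% lower). Without the fold minimum 13 passed, all lower (14.4%), and the median was -0.14. The same EXPA1 OE libraries without Dex serve both comparisons.

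The difference between genotypes in the response to Dex was tested as an interaction over 16 libraries. After 3 h 1 gene was called higher and 0 lower (7.16% and 5% of all genes tested), the 5′ part of rps12 (ATCG00065, Pt:69611-69724, minus strand), a ribosomal protein whose mRNA is joined from separate transcripts. It stood at 0.485, 0.936, 0.199 and 0.303 CPM in EXPA1 OE after 3 h, against 0.256, 0.204, 0.0884 and 0.201 without Dex, and at 0.446, 0.597, 0.214 and 0.345 in WT after 3 h, against 0.413, 0.356, 0.733 and 0.718 without Dex (interaction 1.89 ± 0.72, adjusted p = 0.0476 by edgeR). Its summed count over 24 libraries was 481, and the call was absent in 10 of 16 fits that left out a library, while 11 and 4 genes were called without replicates 1 and 2 of WT without Dex.

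The median interaction after 3 h was 0.82, and without the 5 rRNA-rich libraries it was -0.18, with 0 called higher and 1 lower. After 7 days 0 genes were called by edgeR and by DESeq2, with 4 and 7 at an unadjusted p under 0.05 (3.24% of all genes tested were called higher and 0.855% lower). The median there was 0.54 with all libraries and -0.32 without the rRNA-rich ones. Both medians thus changed sign with those libraries left out.

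The nuclear genes that serve plastid transcription were read from a list of 21. Without Dex 0 of the 21 were called between EXPA1 OE and WT (median 0.08) and with no fold minimum only SIG1, a sigma factor, passed, higher at 0.20. After 3 h 14 passed lower and 2 higher with no fold minimum (median -0.19; 25.8% of all genes tested passed lower). The sigma factor genes SIG5 and SIG1 were lowest at -0.90 and -0.69 (adjusted p = 1e-05 and 1.7e-05 by edgeR), and RPOTmp and RPOTp, the phage-type polymerases of nuclear origin, were higher at 0.83 and 0.37 (adjusted p = 1.9e-05 and 0.0017 by edgeR). None of these reached the fold minimum.

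Within EXPA1 OE, 3 h of Dex against none gave calls with the fold minimum, with SIG1 lower at 100 ± 9.81 CPM after 3 h against 292 ± 9.27 without Dex (-1.58 ± 0.06), SIG4 lower (-1.09 ± 0.06), and RPOTmp higher at 21.9 ± 3.56 against 8.88 ± 0.92 (1.26 ± 0.08; SD, n = 4 each). The adjusted p was 3.8e-09 for SIG1, 6.9e-08 for SIG4 and 1.9e-07 for RPOTmp by edgeR. In this comparison 9.05% of all genes tested were called higher and 9.06% lower. The response of these genes in WT is not given here, so these values alone do not show a change particular to EXPA1 OE. After 7 days the transcription list had 6 genes lower between EXPA1 OE and WT with no fold minimum and 0 higher (median -0.24, 7.37% of all genes tested lower), with FSD3 at -0.44 and PTAC14 at -0.35. SIG5 showed an interaction after 3 h of -1.003 ± 0.20 (adjusted p = 0.00098 by edgeR).

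Of 22 nuclear genes of plastid RNA processing and stability 0 were called with the fold minimum in the comparisons of EXPA1 OE with WT. By the adjusted p alone 1 passed higher and 1 lower without Dex, 13 lower after 3 h (median -0.18) and 9 lower after 7 days (median -0.21). Over all genes tested 7.02%, 25.8% and 7.37% passed lower in these 3 comparisons. After 7 days the largest was RNJ, the plastid RNase J, at -0.55 (adjusted p = 0.014 by edgeR), with the RNA-binding proteins CP31A and CP29A at -0.43 each (0.0023 and 0.022). Of 42 nuclear partner subunits of the plastid-encoded complexes 0 were called with the fold minimum in these comparisons. With no fold minimum 3, 34 and 14 passed lower without Dex, after 3 h and after 7 days (medians -0.01, -0.26 and -0.14), and 0, 1 and 1 higher. The shares of all genes tested that passed lower are again 7.02%, 25.8% and 7.37%.

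Set beside the plastid genes of the same complexes after 7 days, the medians were -0.52 for 14 plastid and -0.05 for 9 nuclear genes of photosystem II, -0.56 for 4 and -0.07 for 12 of photosystem I, -0.85 for 12 and -0.21 for 4 of the NDH complex, and -0.33 for 25 and -0.30 for 8 of the plastid ribosome. The difference between the 2 sets was not tested. The nuclear transcripts carry stable polyA tails, unlike the plastid ones, so genome of origin and the selection step cannot be told apart here.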

How the data were processed

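The authors used Trimmomatic for trimming and STAR for alignment to TAIR10, and deposited estimated counts per gene from RSEM, and exon counts from featureCounts as a second table; per the labels libraries were directional and polyA-selected. The use of molecular identifiers in counting is not given in the sources used here. Samples were grouped by title, since the label fields for genotype and cell type hold each other's kind of entry. Gene names came from RefSeq (75 genes by exact coordinates, 5 by overlap, trnS on the opposite strand).

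The expected counts, of which the authors deposited 3.82% as fractions, were rounded and tested with edgeR 4.0.16 in R 4.3.3 (expression filter, TMM scaling, quasi-likelihood F test, standard error from log2 fold change and F) over all genes, on the 8 libraries of a comparison or the 16 of an interaction. CPM are counts over the library total. The fit was tested on simulated data. Tables and plots used Python 3.11, pandas 2.3.3, numpy 2.4.6 and matplotlib 3.10.9.

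The members, gene lists and tests were chosen with earlier results of these data known. Set for naming in every comparison were psbA, psbD, psaA, psaB, petB, atpB, rbcL, ndhF, rps12, rpl2, rpoB, clpP, accD, matK and ycf1. Also set were the 3 largest rises and falls per comparison among called genes, the highest per kilobase of each group, and the highest and lowest summed count. Not all of the listed genes are given in each comparison, and other genes were named after their values were seen. Alternatives were the exon counts, DESeq2 1.42.0, other scalings and filters, no fold minimum, all 24 libraries in 1 fit, a replicate block, summed repeat copies and each library left out; leaving out the 5 libraries richest in nuclear rRNA and a nuclear rRNA covariate were added after seeing the data. Same-numbered libraries deviated together (correlations of 0.16 to 0.486) only between genotypes after 7 days, and no source states a pairing. P-values measure the spread between the labelled biological replicates. Some items are not reported here.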

Additional observations from a re-analysis of the deposited data

Results flagged for a closer look

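In groups of 4 libraries, a value far from the other 3 (a gap to its neighbour, as a share of the group's range, over Dixon's critical value) was looked for in 19 measures over 6 groups, 114 in all, where chance gives about 1 in 20. It was found 14 times, and 13 of these were replicate 2 of EXPA1 OE after 3 h of Dex. That library held 99100 CPM of plastid rRNA (other replicates 6141 to 7745), 55490 of nuclear rRNA (4113 to 5655) and 88.09 of mitochondrial transcripts (19.64 to 24.38). Among the plastid genes it held 619 CPM of psbA, 299.8 of psbD, 233.3 of psaA, 237.4 of psaB, 33.76 of petB, 995.7 of rbcL, 10.6 of ndhF, 27.58 of clpP, 3.241 of accD and 41.41 of matK. The remaining case was psbD in replicate 1 of EXPA1 OE without Dex, at 51.84 CPM against 44.28 to 44.79. The response to 3 h of Dex differed between EXPA1 OE and WT for the 5′ part of rps12 (ATCG00065) by 1.886 on the log2 scale, tested as an interaction (adjusted p = 0.0476 by edgeR).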

How the results depend on the processing

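Of 874 alternative values none reversed the sign of a called gene, but only those of the named called genes could do so. Such genes lost their call in 86 values with 1 library left out and in 44 values of other alternatives. Counts of called genes, medians, shares and levels moved past a set limit in 41 and 45 values, respectively, while 109 of 115 medians kept their sign. Genes lower in EXPA1 OE without Dex, 13 in all, numbered 34 with DESeq2, 24 with no fold minimum, 21 with all 24 libraries, and 0 with the replicate block, the nuclear rRNA covariate or without the libraries richest in nuclear rRNA, and ran from 0 to 41 when 1 library was left out. After 3 h of Dex the 0 lower genes became 9 with no fold minimum and 4 without the rRNA-rich libraries (0 to 32 with 1 library left out). After 7 days the 7 became 32 with no fold minimum and 1 with all 24 libraries or the covariate (0 to 13). With the replicate block 7 were called, 6 of them shared. In WT after 3 h the 0 lower became 4 with no fold minimum and 1 with the covariate or without the rRNA-rich libraries (0 to 1). In EXPA1 OE after 3 h higher genes numbered 13 with library totals, 7 with all 24 libraries (the 3 among them in both), 1 with the replicate block (none of the 3) and 0 with the covariate or without the rRNA-rich library, with 1 lower in both cases (0 to 20 higher and 0 to 1 lower with 1 library left out). After 7 days in EXPA1 OE 13 were lower with no fold minimum (0 to 2). The interaction after 3 h had 0 higher with the exon counts, no filter, 10 counts in every library or without the rRNA-rich libraries (then 1 lower), and 2 with no fold minimum or all 24 libraries (0 to 11), and that after 7 days 1 lower without the rRNA-rich libraries. The causes were not tested. With exon counts the mean plastid share was 0.4957% in EXPA1 OE without Dex and 0.5651% in WT after 7 days, and the levels of rpl16, atpE, rpl14 and rps3 were 1514, 1150, 1091 and 605 CPM per kilobase. With 1 library left out the mean share ran from 0.4493% to 0.4657% in EXPA1 OE and 0.6063% to 0.7327% in WT without Dex, 0.4206% to 0.5741% and 0.5594% to 0.6387% after 3 h, and 0.4112% to 0.4367% and 0.5081% to 0.5347% after 7 days. Genes with few counts, such as ATCG00870 and rps12 (ATCG00065), limit what the depth can show.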
